A study of Mus musculus with 4 samples.

Results

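The mouse mitochondrial genome carries 37 annotated genes, and all of them were taken here as the genes placed on chromosome M among the 50600 genes of the deposited tables. They are 13 protein genes, 2 ribosomal RNA genes and 22 tRNA genes, of which 28 are annotated on the plus strand and 9 on the minus strand. They were read in RNA libraries of T-helper 2 (Th2) cells, the CD4 T cells that make the type 2 cytokines. Primary cells of C57BL/6NJ mice were used. They form a single group of 4 biological replicates, with no treatment named in the labels, sex not collected, and age and developmental stage unknown. Each replicate has its own biosample but all carry the same donor label, so the spread between libraries may be technical in part, and p-values measure only that spread. By its label the assay is total RNA-seq, but the protocol document that is named speaks of poly(A) RNA. A time of 72 h stands in the file headers without explanation.

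Both strands of mitochondrial DNA are transcribed into long RNAs that span many genes. The tRNAs lie between the other genes, and cutting them out releases the ribosomal RNAs and messenger RNAs, most of which then receive a poly(A) tail. Transcription in one direction yields both ribosomal RNAs, nearly all messenger RNAs and most tRNAs, and in the other direction yields the RNA of mt-Nd6 and the remaining tRNAs. Long stretches of the second kind of RNA lie opposite genes and are usually short-lived, whereas the ribosomal RNAs are as a rule the most abundant mitochondrial RNAs.

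A count in these tables is a fragment whose read 1 lies on the annotated strand of the gene. The sources used here do not say whether read 1 of the kit copies the strand of the RNA. Each value below is therefore a value of the gene's annotated strand, and the RNA behind it may run in the opposite direction. In the nuclear genome, the 10 abundant T cell messenger RNAs listed for comparison, such as Actb and Eef1a1, had 10.5 to 702 CPM (counts scaled to the same library total) on their own strands. The gene mt-Nd6 alone had 15509 ± 725 CPM (SD, n = 3, replicates 1, 3 and 4).

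Replicates 1, 3 and 4 held 2388255, 1929880 and 1713199 gene counts, but replicate 2 held 5016, of which 82 were mitochondrial. Comparisons between genes therefore rest on replicates 1, 3 and 4, while the comparison of libraries includes replicate 2. In replicates 1, 3 and 4 the floor of 3 counts is 1.26 to 1.75 CPM, against 598 CPM in replicate 2. Of the marker genes, 6 of 6 Th2 and 5 of 5 T cell genes had counts on their strands in replicates 1, 3 and 4, at 5.20 to 65.7 and 3.70 to 21.8 TPM (counts per length, scaled likewise). The 3 B cell and 2 erythroid markers had none, the 4 myeloid markers had 1 count in all, and the 4 cytotoxic and natural killer markers had 5.

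Mitochondrial genes took 1.88% of all counts of replicate 1, with a 95% Wilson interval of 1.86% to 1.89%. For replicate 3 the share was 1.93% (1.91% to 1.95%), and 2.20% (2.18% to 2.22%) was found for replicate 4. The share of replicate 2 was 1.63% (1.32% to 2.02%). These intervals cover counting error only, and in such bulk samples fewer cells of a type and less RNA per cell cannot be told apart. The minus-strand genes hold 6.92% of the exonic bases and took 81.4% ± 3.24 of the mitochondrial counts (SD, n = 3). Counts were found in 26, 24 and 24 of the 37 genes in replicates 1, 3 and 4. In these libraries 10 genes had no count and 15 had 3 or fewer in all, and every one of the 15 lies on the plus strand.

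Per base of exonic length, the minus-strand genes together had 35.1, 29.0 and 27.4 counts in replicates 1, 3 and 4, and the plus-strand genes 0.512, 0.440 and 0.584. Of these summed values, the lowest on the minus strand was well above the highest on the plus strand. By gene the strands overlapped, as mt-Tn on the minus strand had a mean of 0.352 counts per base and mt-Nd5 on the plus strand 1.91. The log2 ratio of minus over plus was 5.90 ± 0.30 (SD, n = 3), a 59.6-fold difference, and it was positive in 3 of 3 libraries. Flipping the signs of the 3 library values in an exact permutation test, two-sided, gave p = 0.25, the smallest that 3 libraries allow, and 0.25 after Benjamini-Hochberg adjustment over the 6 contrasts of gene groups computed. Each of the other 5 contrasts below also had the same sign in 3 of 3 libraries and the same p of 0.25 in the exact test. Without mt-Nd6 the log2 ratio of the strands was 2.44, and with 200 bases added to every gene length, as for fragments that only touch a gene, it was 4.95.

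**Figure D1:**
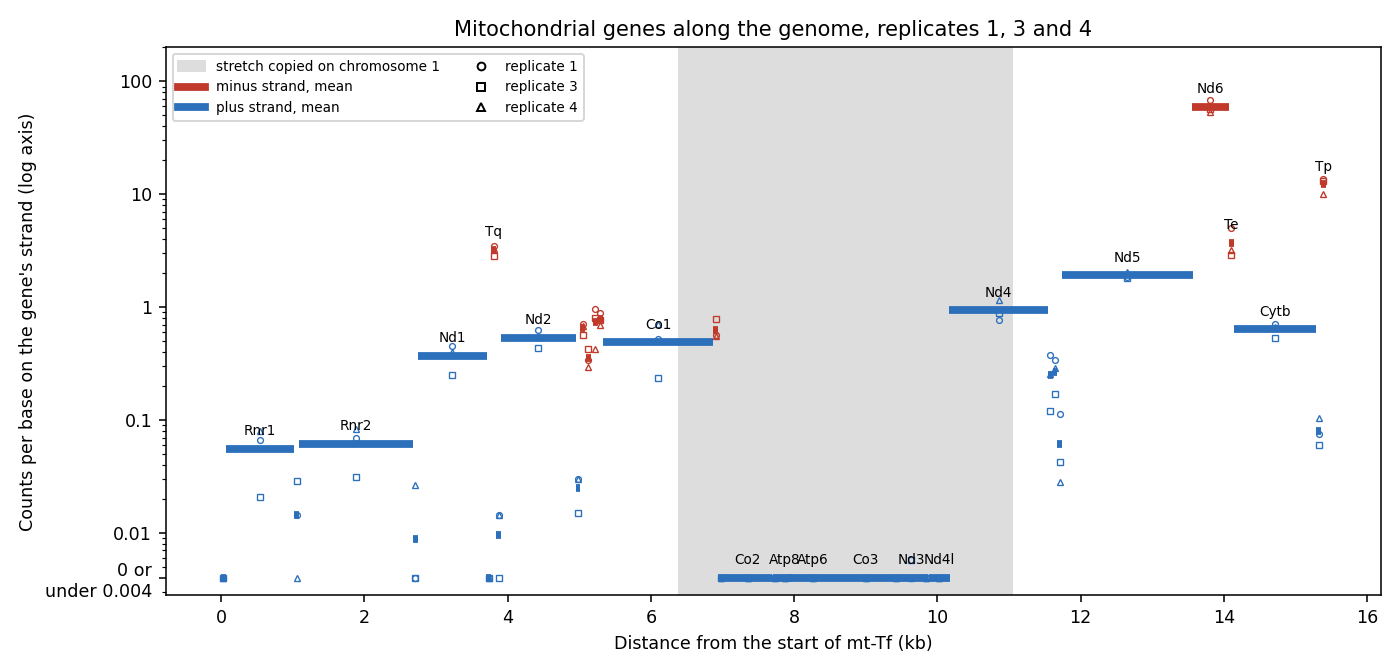
Mean counts per base (vertical log axis) of each mitochondrial gene, drawn as a bar over the gene's extent against its distance from the start of mt-Tf in kb, with open symbols for replicates 1, 3 and 4, red for the minus and blue for the plus strand, and grey for the stretch that has a near-identical copy on chromosome 1. The gene mt-Nd6 stands highest at 59.8 counts per base, the ribosomal RNA genes lie near 0.06, and the plus-strand genes inside the grey stretch sit at or near 0.

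The only protein gene on the minus strand is mt-Nd6 (ENSMUSG00000064368.1, chrM:13552-14070, mm10), which encodes a membrane subunit of respiratory complex I. It had 35726, 58, 29407 and 27979 counts in replicates 1 to 4, and ranked 4, 3, 4 and 3 among all genes of the table by count. Its density was 68.8, 56.7 and 53.9 counts per base in replicates 1, 3 and 4. The 12 plus-strand protein genes together had 0.655, 0.572 and 0.748 counts per base in the same libraries, so mt-Nd6 stood apart from its class by a log2 ratio of 6.51 ± 0.29 (SD, n = 3). Leaving out the protein genes inside the stretch copied in the nuclear genome, described below, gave 6.04. Medians over genes, with 0.5 counts added to each gene, gave 10.6. That median takes in genes near 0, as 6 of the 12 plus-strand protein genes had 3 or fewer counts. The closest nuclear copy of mt-Nd6, Gm11408 on chromosome 4, has 93.64% identity and had 0, 0, 1 and 1 counts in replicates 1 to 4.

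The end of mt-Nd6 overlaps the end of mt-Nd5 on the other strand by 14 bases, and both ends are shown because the gene densest by exonic length on each strand ends at this junction. The sequences are those of GENCODE vM21 for mm10, written 5′ to 3′ on each gene's own strand, with the overlap in capitals (chrM:13491-13565 on the plus strand and chrM:13552-13626 on the minus strand).
mt-Nd5 end: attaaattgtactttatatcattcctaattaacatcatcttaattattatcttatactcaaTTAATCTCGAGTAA
mt-Nd6 end: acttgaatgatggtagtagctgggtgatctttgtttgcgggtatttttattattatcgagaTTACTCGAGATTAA
The capitals are reverse complements of each other, so the genes converge here and end inside each other.

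The partner at this junction, mt-Nd5, is a large complex I subunit gene with 3364, 7, 3332 and 3742 counts in replicates 1 to 4. At 1.84, 1.83 and 2.05 counts per base it was the densest plus-strand gene by exonic length in each of replicates 1, 3 and 4. Even so, mt-Nd6 was 37.3, 31.0 and 26.3 times as dense, a log2 ratio of 4.96 ± 0.25 (SD, n = 3). On the far side of mt-Nd6 and mt-Te lies mt-Cytb, the mitochondrial subunit of complex III, with 811, 1, 605 and 766 counts. There mt-Nd6 was 97.1, 107 and 80.5 times as dense in replicates 1, 3 and 4. In base composition mt-Nd6 has 28.1% G and 5.97% C on its own strand, and the 12 plus-strand protein genes 5.88% to 16.1% G and 22.1% to 30.0% C. The high G is not particular to mt-Nd6, as the 8 minus-strand tRNA genes have 17.9% to 29.9% G and 11.3% to 16.4% C. The 14 plus-strand tRNA genes have 7.14% to 21.3% G and 8.82% to 26.1% C.

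The tRNA genes allow the strands to be compared within a class of genes of like length, 59 to 75 bases. The 8 minus-strand tRNA genes had 3.16, 2.76 and 2.39 counts per base in replicates 1, 3 and 4, and the 14 plus-strand tRNA genes 0.0651, 0.0294 and 0.0504. The log2 ratio was 5.91 ± 0.56 (SD, n = 3). By mean density each minus-strand tRNA gene lay above every plus-strand one. Within single libraries this held for 8 of 8 minus-strand genes in replicates 3 and 4 and for 7 of 8 in replicate 1, where mt-Tn, the asparagine tRNA, at 0.338 counts per base lay under mt-Th, the histidine tRNA, at 0.373.

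The tRNAs shown are the 3 densest of the minus strand and the plus-strand neighbour of the densest, with the anticodon in capitals.
mt-Tp: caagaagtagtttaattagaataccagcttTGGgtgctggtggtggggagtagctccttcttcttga
mt-Te: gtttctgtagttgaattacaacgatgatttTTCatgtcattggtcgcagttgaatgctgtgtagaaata
mt-Tq: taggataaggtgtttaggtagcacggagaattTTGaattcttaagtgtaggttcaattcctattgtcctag
mt-Tt: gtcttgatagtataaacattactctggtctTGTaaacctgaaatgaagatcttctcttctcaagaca
They carry proline, glutamate, glutamine and threonine and lie at chrM:15356-15422, chrM:14071-14139 and chrM:3772-3842 on the minus strand and chrM:15289-15355 on the plus strand (mm10, GENCODE vM21 sequences).

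The gene mt-Tp had 905, 2, 885 and 679 counts in replicates 1 to 4, and its end abuts that of mt-Tt, which had 5, 0, 4 and 7. Per base mt-Tp was thus 181, 221 and 97.0 times as high as mt-Tt in replicates 1, 3 and 4. With 344, 0, 199 and 223 counts, mt-Te lies directly beside mt-Nd6 on the same strand. Far away on the map, between mt-Ti and mt-Tm, mt-Tq had 249, 1, 203 and 231 counts. By mean density mt-Tp stood at 12.3 ± 1.87 counts per base, above mt-Te at 3.70 ± 1.13 and mt-Tq at 3.21 ± 0.326 (SD, n = 3), and the last pair differed by less than its spread.

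The other 5 minus-strand tRNAs were lower and close to each other. The cluster of mt-Ta, mt-Tn, mt-Tc and mt-Ty, for alanine, asparagine, cysteine and tyrosine, had 0.652, 0.352, 0.732 and 0.791 counts per base. A serine tRNA gene, mt-Ts1, had 0.633. Among the 14 plus-strand tRNAs the highest were mt-Ts2 for serine at 0.266 and mt-Th at 0.249 counts per base, next to each other between mt-Nd4 and mt-Nd5. No count was found in replicates 1, 3 and 4 for mt-Tf, mt-Ti, mt-Td, mt-Tk, mt-Tg and mt-Tr.

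**Figure D2:**
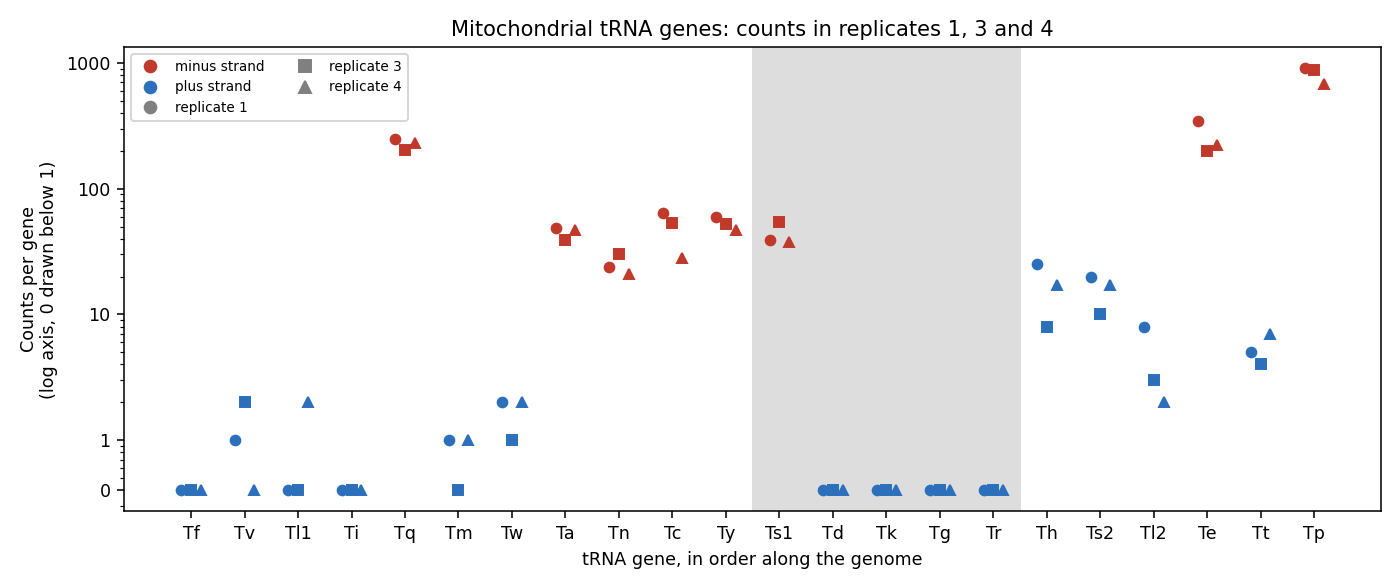
Counts (vertical log axis, with 0 drawn below 1) of each of the 22 tRNA genes in genome order in replicates 1, 3 and 4, red for the minus and blue for the plus strand, with grey behind genes inside the stretch copied on chromosome 1. Minus-strand genes lie at 21 or more counts in every library shown, and plus-strand genes at 25 or fewer.

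Crowded tRNA genes were then set apart from isolated ones. The command in the headers does not allow a fragment to count for more than 1 gene, so a fragment that reaches a neighbour on the same strand is not assigned. All 14 plus-strand tRNA genes have a same-strand neighbour at a gap of 0 or 1 bases. On the minus strand 5 have one within 50 bases and 3 (mt-Tp, mt-Tq and mt-Ts1) have none within 1175 bases. The 3 isolated genes had 5.29 ± 0.624 counts per base and the 5 crowded ones 1.25 ± 0.290 (SD, n = 3). Among crowded genes alone the log2 ratio of minus over plus was 4.74, a setting added once the values were known. By mean density mt-Tp stood far above the other isolated genes. The isolated mt-Ts1, inside the copied stretch described below, at 0.633 lay below the crowded mt-Te, mt-Tc, mt-Ty and mt-Ta. In replicate 3, however, mt-Ts1 at 0.783 lay above mt-Ta at 0.565 and mt-Ty at 0.776. In replicate 4 it lay at 0.551, above mt-Tc at 0.424. How far neighbours lowered these counts was not tested.

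The protein and ribosomal RNA genes of the plus strand formed 3 tiers. Those of complex I, the NADH dehydrogenase, had the highest and some of the lowest values, with mt-Nd5 at 1.91 ± 0.125, mt-Nd4 at 0.936 ± 0.192, mt-Nd2 at 0.536 ± 0.0997 and mt-Nd1 at 0.370 ± 0.104 counts per base (SD, n = 3). The complex III gene mt-Cytb stood at 0.636 ± 0.0947 and the complex IV gene mt-Co1, the catalytic subunit of cytochrome oxidase, at 0.490 ± 0.241. Within libraries mt-Cytb was above mt-Nd2 in 3 of 3, at 0.709, 0.529 and 0.670 against 0.629, 0.431 and 0.547 counts per base in replicates 1, 3 and 4. In the same order mt-Co1 had 0.521, 0.234 and 0.714, below both genes in replicates 1 and 3 and above both in replicate 4. The ribosomal RNAs of the small and large mitochondrial ribosomal subunits, mt-Rnr1 and mt-Rnr2, had 64, 0, 20 and 76 and 110, 1, 49 and 133 counts in replicates 1 to 4. Their densities were 0.0558 ± 0.0309 and 0.0615 ± 0.0274 counts per base.

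Summed by class, the 2 ribosomal RNA genes lay below the 12 protein genes of their strand by a log2 ratio of −3.61 ± 0.68, and the plus-strand tRNAs below the protein genes by −3.83 ± 0.48 (SD, n = 3). The tRNA contrast was −1.83 with medians over genes and −5.53 with 200 bases added to every length. The rRNA contrast turned to 0.45 when medians over genes replaced sums. A median here takes in genes near 0, as 6 of the 12 protein genes had 3 or fewer counts. Compared with mt-Rnr2, mt-Nd5, the densest plus-strand gene by exonic length, was 26.5, 59.0 and 24.4 times as dense in replicates 1, 3 and 4.

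**Figure D3:**
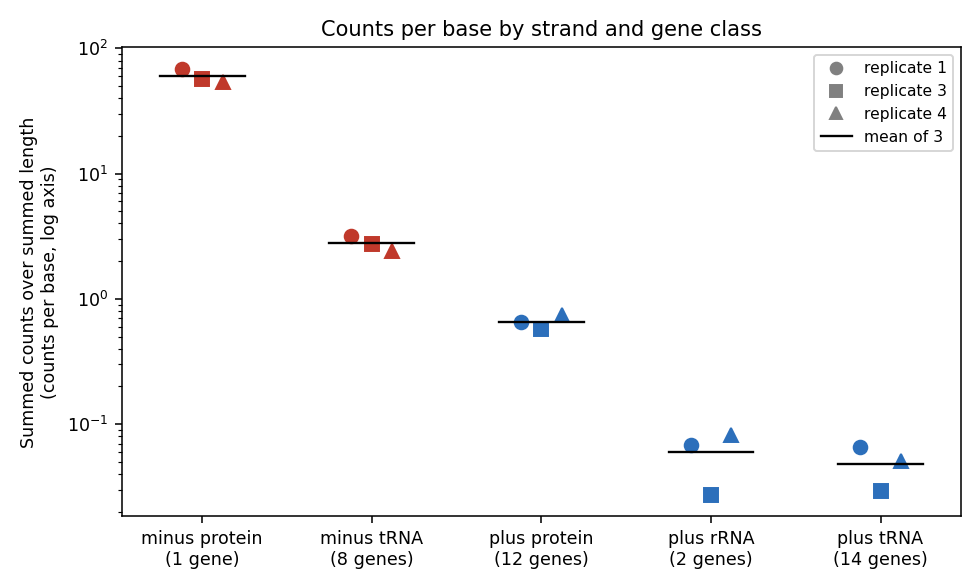
Summed counts over summed exonic length (vertical log axis, counts per base) for the 5 combinations of strand and gene class, with a symbol for each of replicates 1, 3 and 4 and a line at their mean. The minus-strand protein gene and tRNA genes lie at 59.8 and 2.77 on average, and the plus-strand protein, rRNA and tRNA genes at 0.658, 0.0594 and 0.0483.

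The third tier held 6 protein genes with almost no counts. The complex V genes mt-Atp6 and mt-Atp8, which encode subunits of the ATP synthase, had none in replicates 1 to 4, nor had the oxidase subunit mt-Co3 or the complex I subunit mt-Nd4l. The oxidase subunit mt-Co2 had 1, 0, 0 and 0 counts and the complex I subunit mt-Nd3 had 1, 0, 2 and 0. These 6 genes and 4 plus-strand tRNA genes with no count lie next to each other, and together the 10 genes had 2, 0, 2 and 0 counts over 3269 bases.

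Much of this stretch has a near-identical copy in the nuclear genome. Searched against GENCODE vM21 transcripts, 7 mitochondrial genes matched unprocessed pseudogenes on chromosome 1 at 99.71% to 100% identity, among them 5 of the 10 (mt-Co2, mt-Atp6, mt-Co3, mt-Nd3 and mt-Nd4l). No copy there was matched to mt-Atp8. The search kept only matches of at least 100 bases, so tRNA genes, at 59 to 75 bases, could not be matched by it. Counterparts of mt-Atp8 and the 4 tRNA genes would lie in the sequence between the pseudogenes, which was not compared. The copies have the same order and, within 1 base, the same spacing. They span chr1:24611535-24616188 on the minus strand, as a copy of chrM:6390-11042 (mm10). The copies of mt-Co2, mt-Atp6, mt-Co3 and mt-Nd4l, and that of the first 876 bases of mt-Nd4, have no mismatch. Fragments that fit both places equally well are not counted under the command in the headers. How many fragments were lost in this way was not tested.

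This stretch was examined after its counts were seen, as were its pseudogenes. Of these 7, 6 had 1 count in all over the 4 libraries. The exception was Gm28438, the copy of mt-Nd3, with 73, 0, 64 and 71 counts in replicates 1 to 4, which is 208 against 3 for mt-Nd3 itself. The pair differs by 1 base in 345, written T3C with the base of mt-Nd3 first and positions counted from 1 at its 5′ end. The first 75 bases are shown because they hold the only mismatch of the pair, which is in capitals (chrM:9459-9533 on the plus strand and chr1:24613045-24613119 on the minus strand).
mt-Nd3: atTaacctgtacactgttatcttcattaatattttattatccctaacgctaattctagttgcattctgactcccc
Gm28438: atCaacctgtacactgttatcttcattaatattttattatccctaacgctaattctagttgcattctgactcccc
The reference genome is that of C57BL/6J, whereas the labels name C57BL/6NJ cells. Which base the mitochondrial genome of these cells carries was not tested.

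Where the copied stretch begins and ends, genes that lie partly inside it kept counts. Outside it mt-Nd4 has 502 bases, and its counts spread over these alone came to 2.11, 2.45 and 3.15 per base in replicates 1, 3 and 4. On that scale mt-Nd4 was above mt-Nd5 in each of these libraries, whereas over its full length it was below. The gene mt-Co1 has 1062 bases outside, with 0.758, 0.341 and 1.04 counts per base. The minus-strand gene mt-Ts1 lies inside the stretch but kept 39, 0, 54 and 38 counts in replicates 1 to 4.

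Position was then followed along the plus strand. Over all 12 protein genes the Spearman correlation between start and mean density was 0.281. For the 6 not inside the copied stretch, and per base outside it, density was 0.370 for mt-Nd1, 0.536 for mt-Nd2, 0.712 for mt-Co1, 2.57 for mt-Nd4, 1.91 for mt-Nd5 and 0.636 for mt-Cytb, with a Spearman correlation of 0.600. By these means density was higher at each gene from mt-Nd1 to mt-Nd4 and lower again at mt-Nd5 and mt-Cytb. In replicate 3, however, mt-Co1 at 0.341 lay below mt-Nd2 at 0.431. These genes share libraries and depth and are not replicates, so the correlation is a description.

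The libraries were next compared with each other. With the quasi-likelihood test of edgeR over all genes, each library was set against the other 3, and 19 of the 37 mitochondrial genes passed the filter of a mean count of 10. No mitochondrial gene was called in replicate 1 or 4 (0 and 1 at an unadjusted p under 0.05, and 0 calls by DESeq2), where 0.0503% and 0.0335% of the 5969 genes tested were called. The median log2 difference of the 19 genes was −0.18 in replicate 1 and 0.41 in replicate 4, against 0.06 and 0.04 over all genes. A positive difference was seen for 5 of the 19 in replicate 1 and 15 of the 19 in replicate 4. Genes of the same library are not independent, so these counts are a description.

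In replicate 3 edgeR called 3 of the 19 lower and 0 higher, while 12.7% of all genes tested were called lower and 0.838% higher. The share of mitochondrial genes was thus near that of all genes. The 3 were mt-Rnr1, at 26.8, 10.4 and 44.4 CPM in replicates 1, 3 and 4 (log2 difference −1.60 ± 0.46 SE, edgeR adjusted p = 0.00999), mt-Rnr2 at 46.1, 25.4 and 77.6 CPM (−1.13 ± 0.39, 0.0340) and mt-Co1 at 337, 188 and 644 CPM (−1.24 ± 0.35, 0.00864). Replicate 3 was the lowest of these libraries in all 3 genes and replicate 4 the highest. Without replicate 4 none was called, at log2 differences of −1.22, −0.73 and −0.90 for mt-Rnr1, mt-Rnr2 and mt-Co1 and edgeR adjusted p of 0.0968, 0.201 and 0.862. DESeq2 called none, at differences of −1.59, −1.31 and −1.32. Without replicate 1 the call of mt-Co1 was lost at a larger difference of −1.57 (edgeR adjusted p = 0.731), and the others kept theirs. Without replicate 2 the 3 calls held and mt-Nd1 was also called lower (−0.56, edgeR adjusted p = 0.0298), while in replicate 4 mt-Co1 was then called higher (1.27, edgeR adjusted p = 0.00879). Summed, the 10 abundant nuclear messenger RNAs were also lowest in replicate 3, at 2126, 773 and 2032 CPM in replicates 1, 3 and 4. Unlike the 3 mitochondrial genes, this sum was highest in replicate 1. The 5 T cell markers, of which Cd3e and Cd3g are also among those 10, had 135, 49.7 and 145 CPM. The list of nuclear genes for the mitochondrial genome, described below, was not lowest in replicate 3, at a summed 3598, 3680 and 3513 CPM. The part of these nuclear genes in the result was not tested.

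The smallest ranges in log2 CPM over replicates 1, 3 and 4 were those of 2 minus-strand genes, mt-Nd6 and mt-Ty. In CPM mt-Nd6 stood at 14959, 15238 and 16331 in replicates 1, 3 and 4, and mt-Tp at 379, 459 and 396. Spread was wider for mt-Nd4 at 444, 638 and 922 CPM and for mt-Nd5 at 1409, 1727 and 2184 CPM, both lowest in replicate 1 and highest in replicate 4. None of these 4 genes was called in replicate 1, 3 or 4. In replicate 2, where 0.553% of genes tested were called lower, edgeR called only mt-Nd6 of the 19 lower (log2 difference −1.59 ± 0.25 SE, edgeR adjusted p = 0.0304). DESeq2 also called it. Its CPM there was 11563, from 58 counts, and without the TMM factors the difference was −0.39 (edgeR adjusted p = 0.865). The call was also lost without replicate 1 or replicate 4, at edgeR adjusted p of 0.113 and 0.198, with differences of −1.55 and −1.53 close to the first.

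**Figure D4:**
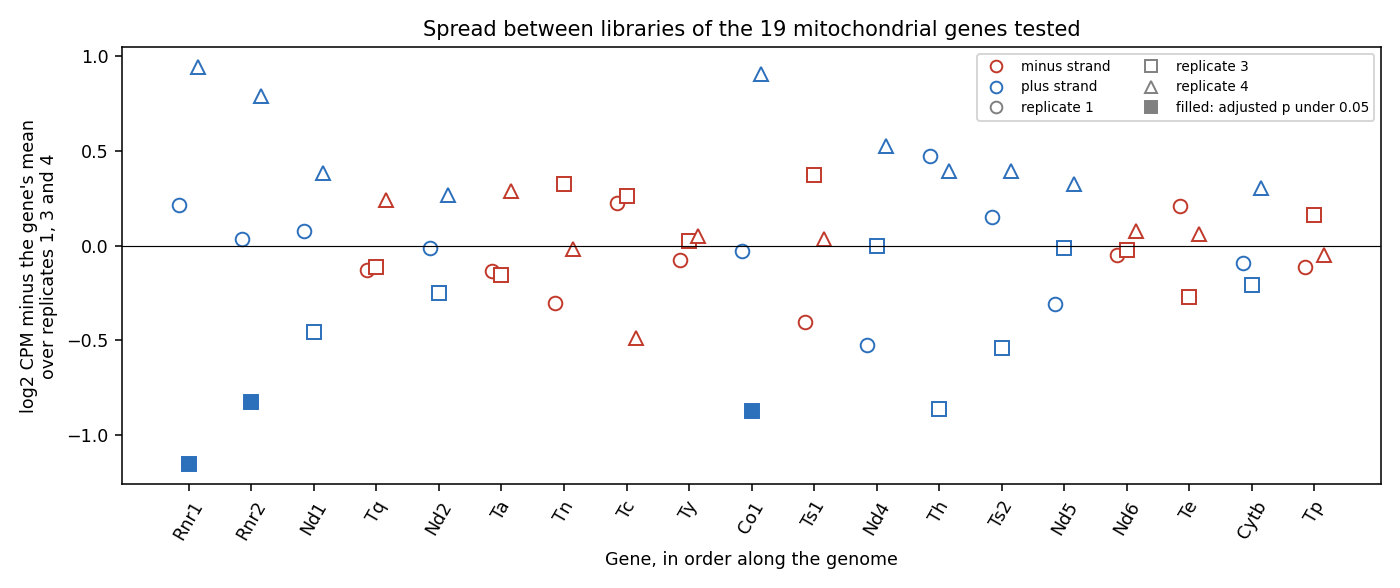
Difference of log2 CPM from the gene's own mean over replicates 1, 3 and 4 (vertical axis) for the 19 mitochondrial genes tested, in genome order, red for the minus and blue for the plus strand, with filled symbols where edgeR called the library apart from the other 3. The filled symbols are mt-Rnr1, mt-Rnr2 and mt-Co1 in replicate 3, and mt-Nd6 and mt-Ty have the least spread.

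Nuclear genes that copy, transcribe and process the mitochondrial genome were read from a list of 51, all of which matched the tables. Of these, 50 had a count in at least 1 of replicates 1, 3 and 4, and 24 have exons opposite another gene. The 5 with the highest level were Slirp, which stabilises mitochondrial messenger RNA, at 836 ± 34.6 TPM, Trnt1, which adds the CCA end of tRNAs, at 122 ± 4.01, and Mgme1, a nuclease of mitochondrial DNA replication, at 117 ± 13.9 (SD, n = 3). Next came Fastk, whose product is needed for mt-Nd6 RNA, at 90.6 ± 6.21 TPM, and Prorp, the nuclease that cuts tRNA 5′ ends, at 45.5 ± 6.59 TPM. All 5 have exons opposite another gene (Alkbh1 and Snw1, Crbn, Snx5, Slc4a2 and Ppp2r3c), so RNA of either partner may be behind these counts. The median of the list was 1.68 TPM.

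Of the 51 genes 21 passed the filter, and edgeR called 2 lower and 0 higher in replicate 3, against 12.7% called lower among all genes. They were Lrpprc, the partner of Slirp, with 19, 0, 4 and 22 counts in replicates 1 to 4 (log2 difference −2.10 ± 0.59 SE, edgeR adjusted p = 0.0115), and Rexo2, which degrades short RNAs, with 27, 0, 5 and 12 (−1.68 ± 0.56, 0.0324). DESeq2 called neither, at differences of −2.44 and −1.97. Without replicate 2 the edgeR call of Rexo2 was lost (−1.69, edgeR adjusted p = 0.0868), as it was with no filter (−1.61, edgeR adjusted p = 0.0874). Without replicate 1 both genes fell under the filter, and Lrpprc did so without replicate 4. No member was called in replicates 1, 2 and 4 by edgeR, and 0 had an unadjusted p under 0.05 there. With a library left out, edgeR called Rexo2 higher in replicate 1 without replicate 4, at a log2 difference of 1.96. Pnpt1, an RNA-degrading exonuclease named after its value was seen, was called higher in replicate 4 without replicate 1, at 1.58. In both settings many more genes were called over all genes than with all libraries, so these calls are not particular to the list. The median log2 difference of the list in replicate 3 was −0.15, against −0.02 over all genes.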

How the data were processed

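Per the file headers, the authors made the deposited values with featureCounts 1.4.6-p4 as raw fragment counts per gene from STAR alignments, with the exons of GENCODE vM13 (mm10), both mates mapped and strand setting 1. The version of STAR was not given in the sources used. Each table covers 1 library. Symbols and gene classes came from GENCODE vM21 by gene identifier, which named all 37 members and left 224 of the 50600 identifiers without a name.

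Counts per base are counts over exonic length. CPM and TPM were computed from the counts of all genes with Python 3.11.15 and pandas 2.3.3. Contrasts within a library were log2 ratios of summed counts over summed length, tested by an exact sign-flip permutation test. Libraries were compared with the quasi-likelihood test of edgeR 4.0.16 in R 4.3.3 (TMM, mean count of 10 or more, Benjamini-Hochberg at 0.05 over all genes), with DESeq2 1.42.0 as the alternative. The test compares libraries, not conditions, and the single library is taken to have the spread of the rest. Standard errors come from the fold change and its F value. Copies were found with BLAST+ 2.17.0 (word size 16, at least 100 bases at 90% identity). Depth limits what is seen: the floor is 3 counts, and intervals cover counting error only, as fragments carried no molecular identifiers. The log2 ratios were checked against known ratios on simulated counts, which does not check the sign-flip p. The edgeR test was also run on simulated counts. All 37 members could be named, and of the 51-gene list those called and the 5 highest. The members and lists were chosen with earlier results of these data known.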

Additional observations from a re-analysis of the deposited data

Results flagged for a closer look

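Over 4 libraries, 30 values (shares, contrasts and CPM of members) were checked for a library far from the others, by its gap to the nearest value over the whole range against the 95% limit of Dixon, which chance passes in about 1 of 20 cases. For mt-Tn CPM the gap was 0.971 of the range, as replicate 2 stood at 199 CPM from 1 count and no other library above 15.5 CPM. For mt-Ty CPM it was 0.916, as replicate 2 had no count and the others 25.1 to 27.4 CPM. Both rest on replicate 2, where the floor of 3 counts is 598 CPM.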

How the results depend on the processing

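In 71 of 86 alternatives tried for the contrasts, the trend along the genome, the mitochondrial share and the counts of called members, the result kept its direction and its side of the threshold or stayed within its limits, although the sign-flip test cannot pass 0.05 with 3 libraries. The rRNA contrast turned from −3.61 to 0.45 with medians over genes. The Spearman correlation of position with density was 0.771 without the genes inside the copied stretch, 0.600 per base outside it, and 0.281 to 0.326 with a library left out. The mitochondrial share of counts, 1.91% over 4 libraries, was 3.64% of protein-coding and mitochondrial counts. Called members in replicate 2, 1 in the main test, were 2 with no filter, 0 without TMM factors and 0 to 1 with a library left out. Called members in replicate 3, 3 in the main test, were 0 with DESeq2, 1 with no filter, 5 without TMM factors and 0 to 4 with a library left out. In replicate 4 no member was called in the main test. Without replicate 1 some members were called higher, as were many genes over all genes tested. Without replicate 2 mt-Co1 was called higher, where few genes were called over all genes tested. Over all genes replicate 3 had 809 calls, 0 with DESeq2 and 1352 without TMM factors, and replicate 1 had 3, but 638 without replicate 4. The cause of these changes was not tested. Settings with the copied stretch, crowded tRNA genes or added length, and those for Lrpprc and Rexo2, were chosen after the data were seen. Those leaving a library out of the mitochondrial share were also not planned in advance.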
